A study of Danio rerio with 4 samples.

Results

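The blood vessel endothelial cells of the zebrafish heart are described here from 75 cell barcodes out of 51318 that met the limits for barcode quality. They were chosen by measured values. A barcode had to hold at least 500 UMIs (unique molecular identifiers, each standing for 1 captured RNA molecule), at least 200 genes, at most 50% mitochondrial UMIs and under 25% UMIs of hbaa1, hbaa2, hbba1 and hbba2. It then needed at least 3 UMIs spread over at least 2 of the 7 vessel genes plvapa, plvapb, kdrl, kdr, flt1, cldn5b and mcamb, and more UMIs over plvapa, plvapb, kdrl and flt1 than over the endocardial genes spock3, aqp8a.1 and f8. Of the 75 cells, 10 and 6 came from the cryoinjured replicates 1 and 2, and 26 and 33 from the sham replicates 1 and 2.

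The 4 libraries were made from hearts of adult wild-type zebrafish (Danio rerio, strain AB), several hearts pooled per library. The 2 libraries named 6 hpci come from hearts taken 6 h after a cryoinjury, in which a probe chilled in liquid nitrogen touched the ventricle. The 2 libraries named 6 hps come from hearts taken 6 h after a sham operation that opened the pericardium without the probe. Fish of both groups had received 4-thiouridine, a uridine analogue that marks newly made RNA, by injection into the thorax before the operation. The counts used here add marked and unmarked RNA, so they describe the whole transcriptome of a cell.

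Blood vessel endothelial cells line the coronary vessels that feed the heart muscle. They sense Vegf, the main growth factor of vessels, through the receptors encoded by kdrl, kdr and flt1, they seal their contacts with claudins such as cldn5b, and they build the diaphragms of fenestrae and caveolae with Plvap proteins. The endocardium is the other endothelium of the heart and lines its chambers. In the regenerating zebrafish heart new coronary vessels grow into the injured tissue early after a cryoinjury.

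The libraries held 10464 to 15164 kept barcodes each. Any 2 libraries shared 35 to 67 kept barcode sequences, except 234 between 6 hpci replicate 1 and 6 hps replicate 1, and no vessel cell had a barcode that was a vessel cell elsewhere. The vessel cells held 137271 and 40949 UMIs in the 6 hpci libraries and 234066 and 580315 UMIs in the 6 hps libraries. A single UMI therefore stood for 7.28 and 24.4 CPM (counts per 1000000 UMIs) of the summed vessel cells at 6 hpci, against 4.27 and 1.72 CPM at 6 hps. The summed profiles also rested on few cells at 6 hpci, where the 3 deepest cells gave 62.5% and 76.5% of the UMIs, against 44.9% and 21.3% at 6 hps.

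The genes that chose the cells were unevenly represented, and their values are given as a description without a test. The Vegf receptor gene kdrl was found in 58 of the 75 cells (133 UMIs), mcamb, which encodes a cell adhesion molecule of vessels, in 48 (107 UMIs), plvapb in 44 (92 UMIs) and the tight junction gene cldn5b in 41 (140 UMIs). Fewer cells held kdr (11), plvapa (9) or flt1 (6). In the 4 libraries kdrl had 16 and 11 UMIs at 6 hpci and 38 and 68 UMIs at 6 hps. For cldn5b the UMIs were 9 and 11 at 6 hpci and 61 and 59 at 6 hps. In total the 7 vessel genes gave 509 UMIs, with a median of 5 per cell and a range of 3 to 27.

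Many cells stood close to the limits of the choice. With exactly 3 vessel UMIs there were 4 and 0 cells at 6 hpci and 7 and 11 at 6 hps, and a further 5 and 4 barcodes at 6 hpci and 10 and 10 at 6 hps missed the limit by a single UMI. Ties between vessel and endocardial UMIs kept out 6 and 4 barcodes at 6 hpci and 11 and 18 at 6 hps, and barcodes with enough vessel UMIs but more endocardial ones numbered 102 and 64 at 6 hpci and 227 and 392 at 6 hps. At least 1 endocardial UMI was present in 36 of the 75 vessel cells, which held 88 such UMIs in all, mostly of aqp8a.1 (66 UMIs in 26 cells). Barcodes with enough vessel UMIs but more endocardial ones thus outnumbered the vessel cells in every library. Endocardial cells, defined by the mirror image of the choice, numbered 8635.

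Endothelial genes that played no part in the choice were looked at as a check of the label. At least 1 UMI of the 29 measured pan-endothelial and endothelial transcription factor genes was present in 69 of the 75 cells, with a median of 4 of these genes per cell. That count was not taken in other barcodes, and it grows with depth. Summed over the vessel cells, the 29 genes took 0.0408% and 0.105% of UMIs at 6 hpci and 0.0995% and 0.107% at 6 hps. The range over libraries was 0.0203% to 0.0345% in endocardial cells and 0.00848% to 0.0187% in all other kept barcodes. Because all depths differ, detection was also compared after every kept barcode of at least 1000 UMIs was thinned at random to 1000 UMIs. The junction gene cdh5 (VE-cadherin) was then found in 14.7% of vessel cells, in 8.77% of 8585 endocardial cells and in 0.707% of the 40469 remaining kept barcodes. The platelet-derived growth factor gene pdgfbb, which endothelium uses to attract mural cells, was found in 9.33% of vessel cells, 0.210% of endocardial cells and 0.141% of the rest. For egfl7, which encodes a protein secreted by endothelium, the shares were 10.7%, 3.88% and 0.395%. Not every endothelial gene set vessel cells apart from endocardium. In vessel and endocardial cells tie1 was found in 1.33% and 0.967%, clec14a in 1.33% and 1.12%, and tek in 0% and 0.699%. A share of 1.33% stands for 1 vessel cell. The rule's own genes differ through the choice itself and are no check of the label. Among them cldn5b was detected in 25.3%, 1.07% and 0.262% of the same classes and plvapb in 16.0%, 0.291% and 0.0988%, whereas mcamb was detected in 21.3%, 3.74% and 3.20%.

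Not all of the 75 cells carried these genes. In 15 cells mcamb gave more UMIs than the other 6 vessel genes did in sum, and 5 of the 6 cells without any of the 29 endothelial genes were among them. Those 15 cells had a median of 11.4% of their UMIs in cardiomyocyte marker genes such as myl7, against 4.10% in the other 60 cells. No vessel cell was without cardiomyocyte RNA. The share of the 15 cardiomyocyte marker symbols ranged per cell from 0.180% to 18.2% (median 6.79%) and from 0.313% to 1.94% (median 0.756%) in the 6 hpci replicates, and from 1.02% to 14.5% (median 4.20%) and from 0.490% to 17.7% (median 6.77%) in the 6 hps replicates. Summed over the cells the share was 7.58% and 0.613% at 6 hpci and 6.44% and 8.11% at 6 hps, so 6 hpci replicate 2 stood apart from the other 3 libraries. Over all other kept barcodes it was 8.40% and 8.98% at 6 hpci and 10.6% and 9.67% at 6 hps.

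The markers of blood cells other than erythrocytes were near zero. The 12 leukocyte markers gave 23 UMIs in 11 cells, and the 5 thrombocyte markers 10 UMIs in 7 cells, with the leukocyte genes ptprc, coro1a and spi1b at 1 UMI each. Doublet scores were high in 4 and 0 vessel cells at 6 hpci and in 0 and 4 at 6 hps. The choice asks for a number of UMIs and so favours deep barcodes. Vessel cells had median UMI counts of 10216 and 7277 at 6 hpci and 5079 and 15102 at 6 hps, against 3220, 2815, 2513 and 3472 in all other kept barcodes of the same libraries, while endocardial cells, chosen in the same manner, had 11748 and 4650.5 at 6 hpci and 6486 and 10155.5 at 6 hps.

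Next, the genes that stood out most in vessel cells were ranked by their CPM over that of all other kept barcodes, with 10 CPM added to both and the ratio averaged over libraries. The 10 genes of the rule, haemoglobin and mitochondrial genes were left out, and a level of at least 50 CPM in the vessel cells of every library was required. This contrast belongs to the choice itself, so the values carry no test. The first 2 ranks were held by CR762483.1, with 168 and 244 CPM at 6 hpci and 359 and 215 CPM at 6 hps, and CABZ01030107.1 (8.95-fold), both without a descriptive name in the symbol tables used.

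Rank 3 was held by id1, an inhibitor of helix-loop-helix factors and a target of Bmp signals in endothelium. It had 138 and 928 CPM in the vessel cells at 6 hpci and 218 and 410 CPM at 6 hps, while the other kept barcodes had 23.3 to 51.7 CPM, a 7.64-fold ratio. Next came sele, which encodes E-selectin, a receptor that lets leukocytes roll on activated endothelium. Its levels were 233 and 195 CPM at 6 hpci and 286 and 367 CPM at 6 hps, against 16.9 to 35.9 CPM in the other barcodes, and it was seen in 38 of the 75 cells. The fatty acid carrier gene fabp11a, also strong in endocardium, was seen in 65 cells and had 605 and 2613 CPM at 6 hpci and 1961 and 2328 CPM at 6 hps. After the thinning to 1000 UMIs sele was detected in 25.3% of vessel cells, 7.52% of endocardial cells and 0.974% of the rest, and fabp11a in 57.3%, 42.7% and 10.4%.

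The other leading genes included marcksl1a (5.17-fold), akap12b (4.91-fold), the simple epithelial keratin gene krt18 (4.04-fold), tagln2 (3.95-fold), the actin gene actb1 (3.15-fold) and ahnak (2.93-fold). The growth factor gene hbegfa, a ligand of the Egf receptor, was 3.89-fold above the other barcodes and seen in 43 cells. The remaining genes were txn (thioredoxin), wu:fj16a03, rgcc, rbp2a (a retinol-binding protein), tcima, tagln, rgs5a and the histone chaperone gene nap1l1, at ratios of 2.90 to 5.68. Actin stood out for the number of cells. It was found in 53.3% of vessel cells at equal depth, against 20.5% of endocardial cells and 10.1% of the remaining barcodes.

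**Figure D1:**
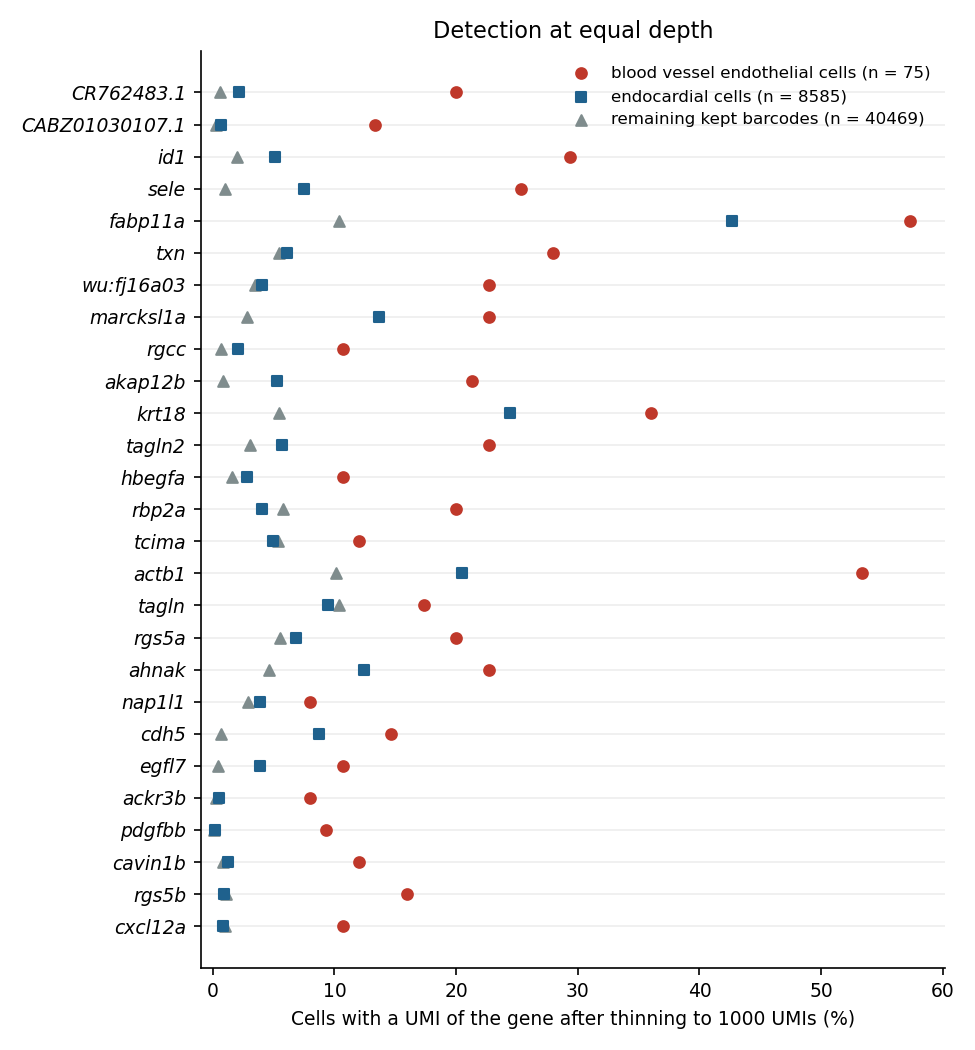
Share of cells with at least 1 UMI of a gene after every cell of at least 1000 UMIs was thinned to 1000 UMIs (x axis, %), for the 20 leading genes and 7 further genes described in the text (y axis). Red circles are 75 blood vessel endothelial cells, blue squares 8585 endocardial cells and grey triangles 40469 remaining kept barcodes; actb1, for example, lies at 53.3%, 20.5% and 10.1%.

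Several of these genes came from few cells. For tagln, a smooth muscle gene for a protein that binds actin, 2 cells of 6 hps replicate 2 carried 2646 and 1511 of the 4511 UMIs counted over the 75 cells. The same 2 cells held 1 and 1 UMIs over the 29 other endothelial genes at depths of 36588 and 24190 UMIs, and their vessel UMIs were of kdrl and mcamb alone. For rgs5a, which encodes a signalling regulator typical of pericytes, a single cell held 87.6% and 93.5% of the UMIs in the 6 hpci replicates and 65.5% and 19.8% in the 6 hps replicates. At least 10 rgs5a UMIs were present in 9 cells and at least 10 acta2 UMIs in 8 cells, so mural RNA was concentrated in a minority of the barcodes. The defining mural gene pdgfrb had 0 and 0 UMIs at 6 hpci and 2 and 1 at 6 hps.

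Another small set of cells carried genes of lymphatic and venous endothelium. Lymphatic vessels share their origin with veins and are marked by the transcription factor gene prox1a, the hyaluronan receptor genes lyve1a and lyve1b, the scavenger receptor genes stab1 and stab2, and flt4, the receptor for Vegfc. At least 3 of 7 such genes were found together in 6 cells, all of 6 hps replicate 2 and chosen after their values were seen. Their depth of 15314 to 48710 UMIs was above the median of all vessel cells, 9288 UMIs, so more genes could be found in them. One of them, with 48710 UMIs, held 61 lymphatic UMIs. Another held 14.1% cardiomyocyte UMIs, and 3 of its 4 vessel UMIs were of mcamb. At equal depth stab1 and stab2 were found in 0 of 75 vessel cells, against 0.559% and 1.19% of endocardial cells. The reverse held for lyve1a (5.33% against 0.175%) and prox1a (4% against 0.489%). Whether these cells are lymphatic was not tested. Over all 75 cells lyve1a had 0 and 122 CPM at 6 hpci and 68.4 and 86.2 CPM at 6 hps. All 6 lymphatic marker UMIs of 6 hpci replicate 2, those of lyve1a among them, came from 1 cell. For prox1a the levels were 0 and 0 CPM at 6 hpci and 8.54 and 27.6 CPM at 6 hps. In the 6 hpci libraries a count of 0 allowed up to 21.9 and 73.3 CPM by counting error alone, above the 8.54 CPM of prox1a in 6 hps replicate 1, so absence of prox1a at 6 hpci could not be told from a level of that size.

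The share of vessel cells was lower in both 6 hpci libraries than in either 6 hps library. They were 0.0929% (95% interval by Wilson's method 0.0505% to 0.171%) and 0.0573% (0.0263% to 0.125%) of kept barcodes at 6 hpci, against 0.171% (0.117% to 0.251%) and 0.221% (0.157% to 0.310%) at 6 hps. The mean was 0.0751% ± 0.0251 at 6 hpci and 0.196% ± 0.0351 at 6 hps (SD, n = 2 each), a 0.383-fold ratio. The groups did not overlap, but the exact two-sided permutation test gave p = 0.333, which is the smallest value that 2 against 2 libraries can give. The intervals cover counting error only, and 3 of the 4 pairs of a 6 hpci and a 6 hps library have overlapping intervals, the exception being 6 hpci replicate 2 and 6 hps replicate 2.

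The share was also taken within the endothelium, which leaves out how many cardiomyocytes or blood cells a library held. Of vessel plus endocardial cells, 0.565% and 0.436% were vessel cells at 6 hpci and 0.992% and 1.12% at 6 hps, a 0.474-fold ratio, and the 95% intervals of the 4 libraries overlapped. The endocardial cells themselves made up 16.3% and 13.1% of kept barcodes at 6 hpci and 17.1% and 19.5% at 6 hps, or 0.804-fold. Kept barcodes of at least 1000 UMIs were also thinned to 1000 UMIs and chosen again. These were 8576 of 10765 kept barcodes in 6 hpci replicate 1 and all kept barcodes in the other libraries. The new choice left 1 and 1 vessel cells at 6 hpci and 4 and 4 at 6 hps, so the same direction rested on 10 cells. Without mcamb in the choice, 8 and 5 cells were left at 6 hpci and 21 and 19 at 6 hps. Whether fewer vessel cells were present in the tissue, fewer survived dissociation or fewer reached the limits of the choice cannot be told apart.

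**Figure D2:**
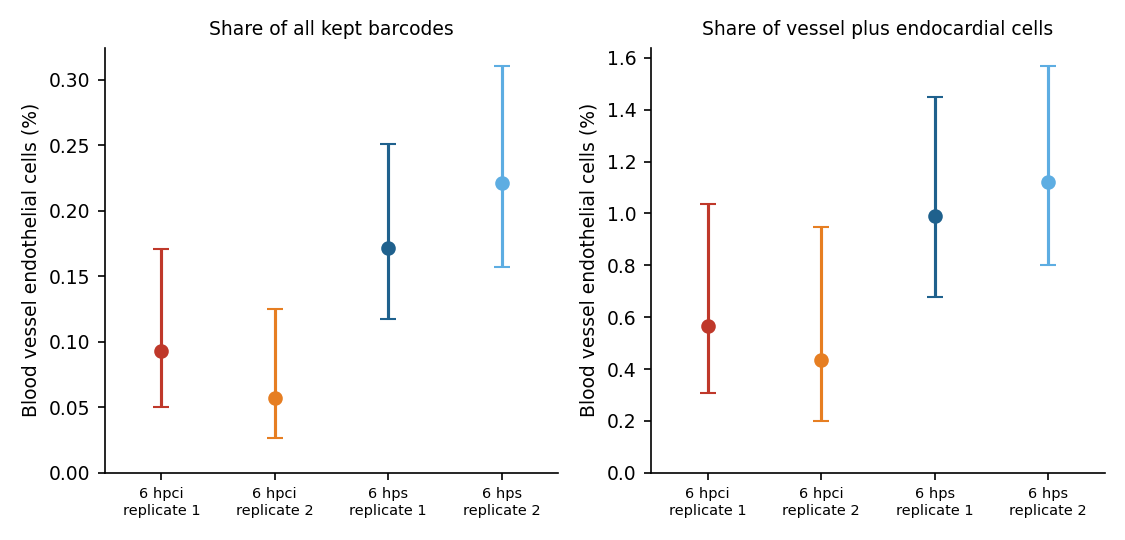
Blood vessel endothelial cells as a share (y axis, %) of all kept barcodes (left) and of vessel plus endocardial cells (right) in the 4 libraries (x axis); points are the shares and bars 95% Wilson intervals. Both 6 hpci libraries lie at 0.0929% and 0.0573% of kept barcodes, below the 6 hps libraries at 0.171% and 0.221%.

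To ask how the transcriptome of vessel cells differed after cryoinjury, their UMIs were summed per library and compared with edgeR's quasi-likelihood test. No gene passed an adjusted p of 0.05 (0 of 876 tested, 0%), 19 had an unadjusted p under 0.05, and the lowest adjusted p was 0.128. DESeq2 likewise called 0 genes, with 35 at an unadjusted p under 0.05. The tested genes were the more abundant ones of 10653 with a UMI, and they held 91.6% to 96.1% of the UMIs. The biological coefficient of variation between libraries of a group was 0.668. The median log2 fold change over all 876 genes was -0.26 (-0.43 with library sizes alone and 0.04 with the size factors of DESeq2), against which the medians of gene groups below are to be read. Of the 876 genes, 295 had values above 0 and 581 below 0, and the counts of directions in gene groups are to be read against these. In 256 genes (29.2%) the 2 groups did not overlap in CPM.

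Haemoglobin UMIs were higher in the vessel cells at 6 hpci. Haemoglobin is made by erythrocytes, which are nucleated in fish, and not by endothelium. Because the choice of cells limits the share of hbaa1, hbaa2, hbba1 and hbba2, the values of these genes are given as a description, without a test. Summed over the cells, haemoglobin genes took 13.1% and 10.0% of UMIs at 6 hpci and 0.884% and 1.46% at 6 hps. The alpha globin gene hbaa1 had 23807 and 20074 CPM at 6 hpci, against 1547 and 2285 CPM at 6 hps. The beta globin gene hbba2 had 11124 and 5373 CPM at 6 hpci, against 684 and 863 CPM at 6 hps. In these genes both 6 hpci libraries lay above both 6 hps libraries. The gene si:ch211-5k11.8, an alpha globin gene by its synonym hbaa1.2, was not named in the choice. It is counted in the same cells, so the limit bears on it too, and its values are likewise a description. It had 36381 and 29232 CPM at 6 hpci, against 2606 and 4351 CPM at 6 hps, a log2 fold change of 3.27 (SE 0.45). Globin copies are near identical, and how reads were split among them is uncertain.

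With the replicate number as a block, 5 of the 876 genes (0.571%) passed, all of them haemoglobin genes. Of these, 4 are genes whose share the choice limits and the other is si:ch211-5k11.8, so nothing is read from their calls. For si:ch211-5k11.8 the log2 fold change was then 3.26. Over all alternatives that were run it ranged between 1.11 (without cells over 5% haemoglobin UMIs) and 3.87 (without 6 hpci replicate 2). The block did not bring any gene other than haemoglobin past the threshold.

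The haemoglobin UMIs were held by few cells. A single cell carried 93.6% of them in 6 hpci replicate 2, 47.3% in 6 hpci replicate 1, 68.5% in 6 hps replicate 1 and 32.9% in 6 hps replicate 2. More than 5% haemoglobin UMIs were found in 4 of 10 and 1 of 6 cells at 6 hpci, and in 1 of 26 and 3 of 33 cells at 6 hps. Without these 9 cells, haemoglobin took 1.17% and 0.900% of UMIs at 6 hpci and 0.291% and 0.615% at 6 hps, and hbaa1 had 1639 and 1511 CPM at 6 hpci and 456 and 778 CPM at 6 hps. The log2 fold change of si:ch211-5k11.8 was then 1.11. The median cell held 1.98% and 1.49% haemoglobin UMIs at 6 hpci and 0.420% and 0.603% at 6 hps, so the groups did not overlap in the median either. The upper end of the range is cut by the choice of cells, which allowed at most 25% of 4 of these genes.

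Other barcodes of the same libraries also held haemoglobin UMIs. In endocardial cells they took 9.15% and 5.66% of UMIs at 6 hpci and 2.13% and 5.71% at 6 hps, and in all other kept barcodes 7.60% and 3.69% at 6 hpci and 1.72% and 4.29% at 6 hps. Medians per barcode were taken for hbaa1, hbaa2, hbba1 and hbba2 together. In endocardial cells the median was 2.803% and 1.103% at 6 hpci and 0.4688% and 0.7864% at 6 hps. In all other kept barcodes it was 2.276% and 1.428% at 6 hpci and 0.6862% and 1.131% at 6 hps. The groups did not overlap in these medians, so that pattern was not particular to vessel cells. The interaction fit of vessel against endocardial cells gave si:ch211-5k11.8 a difference in log2 fold change of 1.53 (SE 1.01). Against all other kept barcodes the difference was 1.77 (SE 1.34). The part of haemoglobin RNA from outside the cells in these values was not tested.

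**Figure D3:**
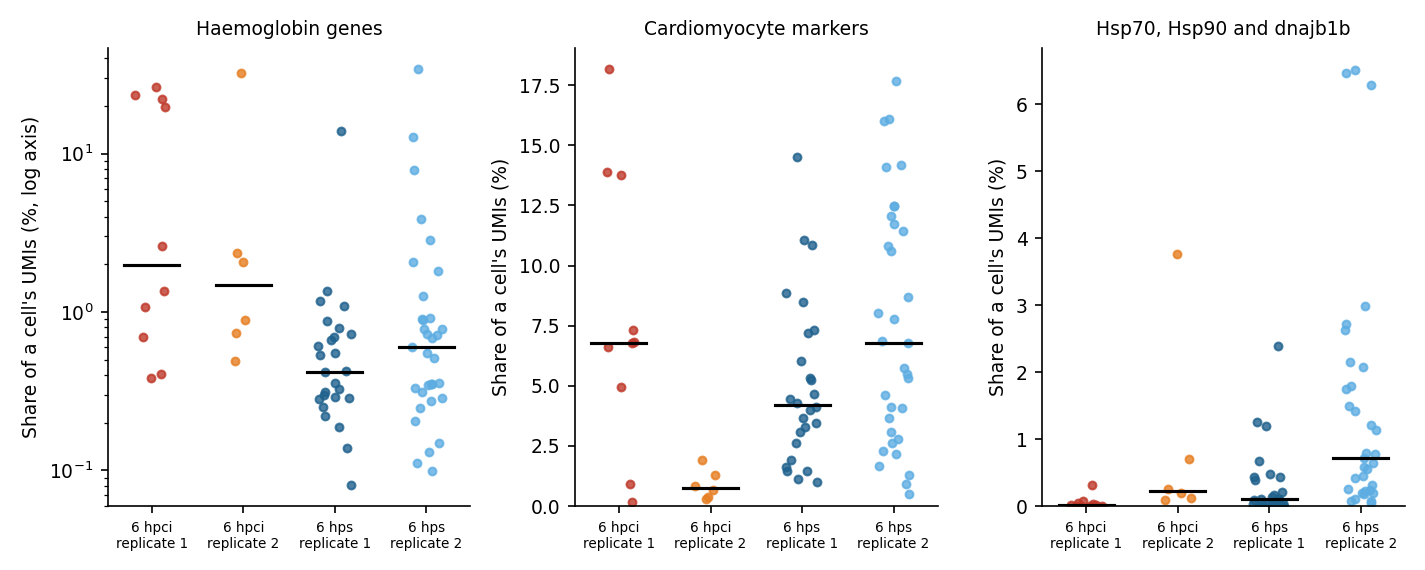
Share of each cell's UMIs (y axes, %) in haemoglobin genes (left, log axis), cardiomyocyte markers (middle) and the Hsp70 and Hsp90 genes with dnajb1b (right); each point is 1 of the 75 blood vessel endothelial cells, by library (x axes), and black lines are medians. Haemoglobin medians are 1.98% and 1.49% at 6 hpci against 0.420% and 0.603% at 6 hps, the cardiomyocyte median is lowest in 6 hpci replicate 2 (0.756%), and the heat shock median is highest in 6 hps replicate 2 (0.715%).

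Outside haemoglobin, the genes with the highest log2 fold changes among those with at least 100 CPM and no overlap between groups are given as values, since none passed the test. The highest was cd74a, which encodes the invariant chain that accompanies class II antigen-presenting molecules and is typical of antigen-presenting cells. It had 430 and 244 CPM at 6 hpci, against 38.5 and 68.9 CPM at 6 hps (log2 fold change 2.72, SE 1.02). Its UMIs lay in 2 and 1 cells at 6 hpci and in 4 and 10 cells at 6 hps. In all other kept barcodes cd74a had 102 and 268 CPM at 6 hpci and 44.5 and 163 CPM at 6 hps. There its log2 fold change was 1.41, and in endocardial cells 1.31, so the direction was not particular to vessel cells. Its paralog cd74b had 102 and 220 CPM at 6 hpci and 55.5 and 51.7 CPM at 6 hps.

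Genes of mural cells came next. The smooth muscle actin gene acta2 had 889 and 708 CPM at 6 hpci and 68.4 and 198 CPM at 6 hps (log2 fold change 2.59, SE 1.21), and rgs5a had 1238 and 1123 CPM at 6 hpci and 248 and 183 CPM at 6 hps (log2 fold change 2.50). The log2 fold changes of acta2 and rgs5a were also above 0 in endocardial cells (0.76 and 0.69) and in all other kept barcodes (0.81 and 0.69). The direction was therefore not particular to vessel cells. In 6 hpci replicate 2 all 29 acta2 UMIs came from 1 cell, as did all 10 of cd74a. The smooth muscle myosin gene myh11a had 65.6 and 171 CPM at 6 hpci, against 4.27 and 13.8 CPM at 6 hps, from 25 UMIs in all. The 12 mural markers together took 0.276% and 0.259% of UMIs at 6 hpci and 0.0812% and 0.875% at 6 hps, where the highest value came from the 2 tagln-rich cells. Mural genes as a group therefore overlapped between the conditions.

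The other genes at the top were cfd (complement factor D), rgcc, gpx1a (glutathione peroxidase), nap1l1, adh5 and ola1, with log2 fold changes of 0.87 to 1.78. The log2 fold change of cfd was also above 0 in endocardial cells (1.24) and in all other kept barcodes (0.76). Its level in vessel cells was 0.757-fold that of those other barcodes. For rgcc, a cell cycle regulator that also ranked among the leading vessel genes, the levels were 80.1 and 317 CPM at 6 hpci and 51.3 and 60.3 CPM at 6 hps, from 11 and 13 UMIs at 6 hpci and 12 and 35 at 6 hps.

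At the other end, the lowest log2 fold change belonged to zgc:195023, with 14.6 and 0 CPM at 6 hpci and 209 and 631 CPM at 6 hps. In each 6 hps library 1 cell held most of its UMIs, 98.0% and 73.0%. The survival gene mcl1a, a Bcl2 relative, was broader. It was found in 6 and 3 cells at 6 hpci and in 19 and 30 cells at 6 hps, with 43.7 and 122 CPM at 6 hpci and 316 and 1765 CPM at 6 hps (log2 fold change -3.86, SE 1.48). In the other kept barcodes mcl1a had 375 and 317 CPM at 6 hpci and 548 and 1001 CPM at 6 hps.

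The chemokine genes cxcl8a and cxcl18b, whose products attract neutrophils, were also lower at 6 hpci without passing the test. The levels of cxcl8a were 21.9 and 73.3 CPM at 6 hpci and 154 and 346 CPM at 6 hps, and those of cxcl18b 80.1 and 73.3 CPM at 6 hpci and 231 and 710 CPM at 6 hps. Each of the 6 hpci values of cxcl8a stands for 3 UMIs. The annexin gene anxa2a, whose product supports fibrinolysis on endothelium, had 328 and 879 CPM at 6 hpci and 966 and 2971 CPM at 6 hps. The remaining genes of this end were hnrnpa0b, rpl26, mrpl57, nppb and synpo2lb, of which nppb, mrpl57 and synpo2lb had 0 UMIs in 6 hpci replicate 2. The hormone gene nppb, a product of cardiomyocytes, had 503 and 0 CPM at 6 hpci and 1359 and 1441 CPM at 6 hps. Cardiomyocyte markers took 7.58% and 0.613% of UMIs at 6 hpci and 6.44% and 8.11% at 6 hps, and their part in the nppb values was not tested.

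**Figure D4:**
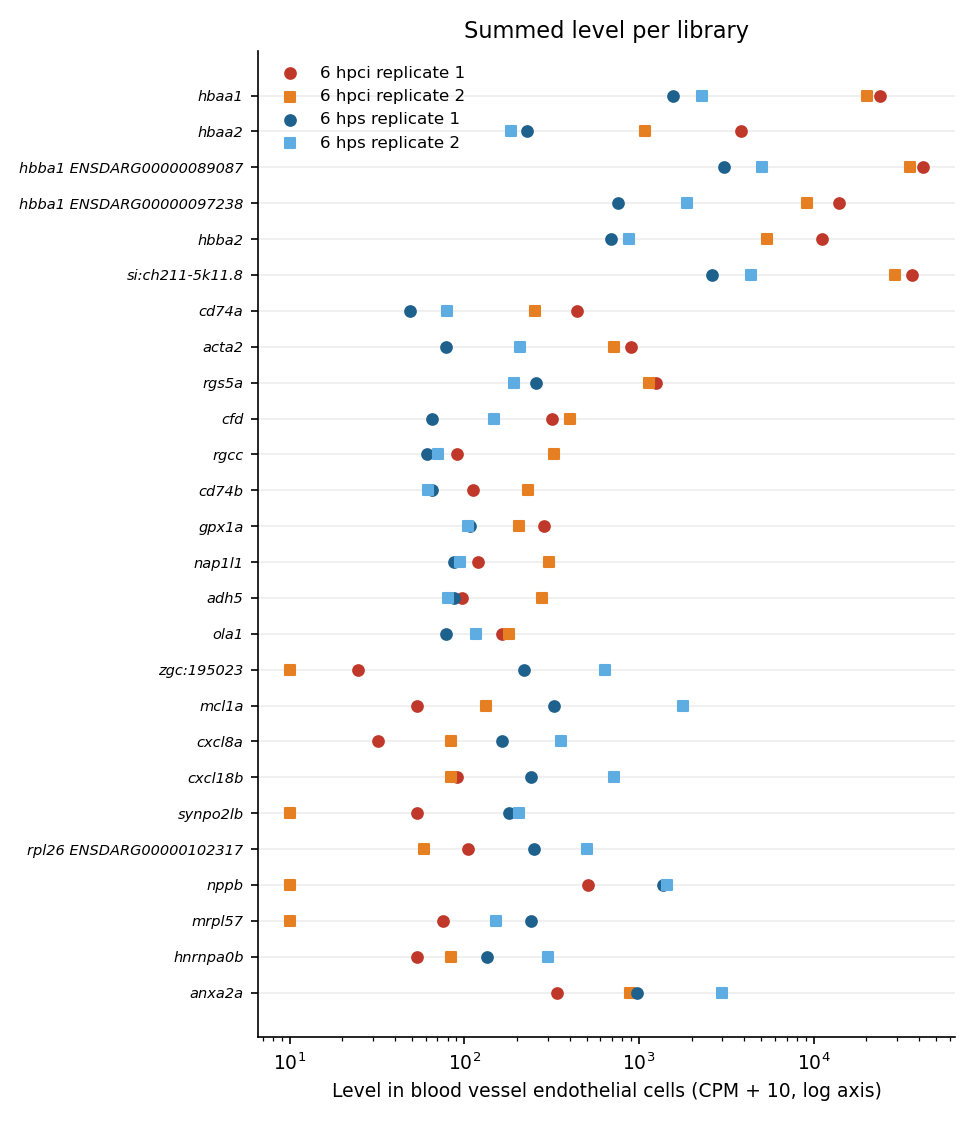
Summed level of the 6 tested haemoglobin genes and the 20 genes with the highest and lowest log2 fold changes among non-overlapping genes (y axis) in blood vessel endothelial cells, as CPM plus 10 on a log axis (x axis), with 1 point per library. Haemoglobin levels lie about a decade apart between groups (hbaa1 at 23807 and 20074 CPM against 1547 and 2285 CPM), and 0 UMIs appear as 10.

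The gene groups of endothelial function were then gone through one by one. None of their tested genes passed an adjusted p of 0.05 in either direction, and most genes of vessel function were too scarce for the test. Of the pan-endothelial surface genes 3 of 17 were tested, all with values below 0 and a median log2 fold change of -0.75. The level of cdh5 was 29.1 and 147 CPM at 6 hpci and 188 and 58.6 CPM at 6 hps, so the libraries interleaved. The level of egfl7 was 0 and 48.8 CPM at 6 hpci, from 0 and 2 UMIs, and 81.2 and 119 CPM at 6 hps. Of 16 endothelial transcription factor genes, sox7 (14.6 and 73.3 CPM at 6 hpci, 51.3 and 84.4 CPM at 6 hps) and etv2 (14.6 and 0 CPM at 6 hpci, 64.1 and 72.4 CPM at 6 hps) were tested. The gene etv2 encodes the factor that starts the endothelial programme in the embryo. Its UMIs lay in 20 of the 75 cells, with a single cell holding 40.7%.

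Signals between vessel cells and their surroundings were sparse. None of the 15 Vegf and angiopoietin ligands and co-receptors was tested. In this group pdgfbb led with 7.28 and 24.4 CPM at 6 hpci, each from 1 UMI, and 103 and 37.9 CPM at 6 hps, while the tip cell gene angpt2a had 14.6 and 0 CPM at 6 hpci and 38.5 and 3.45 CPM at 6 hps. Of 18 Notch and arterial genes, the Notch target genes her6 and her9 were tested (median log2 fold change -1.92). The ligand gene dll4, which marks arterial and sprouting endothelium, had 14.6 and 73.3 CPM at 6 hpci and 38.5 and 27.6 CPM at 6 hps, from 2 to 16 UMIs. Of the 9 apelin and adrenomedullin genes none was tested. Of these, ramp2, part of the adrenomedullin receptor, had 0 and 0 CPM at 6 hpci and 34.2 and 98.2 CPM at 6 hps. The ligand gene adma had 29.1 and 24.4 CPM at 6 hpci and 25.6 and 37.9 CPM at 6 hps.

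Of the flow-responsive genes none was tested. The factor genes klf2a and klf2b, which respond to the shear of flowing blood, had at most 22 UMIs in a library. The levels of klf2a were 7.28 and 97.7 CPM at 6 hpci and 8.54 and 37.9 CPM at 6 hps, and those of klf2b 14.6 and 97.7 CPM at 6 hpci and 17.1 and 31.0 CPM at 6 hps, so the groups overlapped in both. Of 17 genes for caveolae and lipid handling 5 were tested (2 above and 3 below 0, median log2 fold change -0.24, close to that of all genes). The caveolin gene cav1, for example, had 102 and 122 CPM at 6 hpci and 81.2 and 131 CPM at 6 hps. The caveolar coat gene cavin1b had 43.7 and 293 CPM at 6 hpci and 42.7 and 131 CPM at 6 hps. At equal depth cavin1b was found in 12.0% of vessel cells, 1.29% of endocardial cells and 0.818% of the rest. For cav1 the shares were 2.67%, 7.01% and 3.53%, and for cavin1a 0%, 1.47% and 1.82%. Caveolar genes thus did not all go the same way between the classes.

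Among the haemostasis genes of endothelium, anxa2a was tested and is given above. The von Willebrand factor gene vwf had 3 UMIs in all, and its level in vessel cells was 0.462-fold that of other barcodes and 0.238-fold that of endocardial cells, with 10 CPM added. At equal depth a vwf UMI was found in 0 of 75 vessel cells, which allows up to 4% of cells with a UMI at 1000 UMIs a cell and says nothing of cells that express the gene at a lower level, against 6.45% of endocardial cells.

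Of 20 genes for leukocyte adhesion and chemokines 5 were tested, all with values below 0 (median log2 fold change -1.31, 1 with an unadjusted p under 0.05). In endocardial cells this list took 0.0347% and 0.0274% of UMIs at 6 hpci and 0.0403% and 0.0716% at 6 hps. In all other kept barcodes it took 0.0263% and 0.0231% at 6 hpci and 0.0302% and 0.0579% at 6 hps. Lower values at 6 hpci were therefore not particular to vessel cells. The chemokine gene cxcl12a and its scavenger receptor gene ackr3b were detected more often in vessel cells than in endocardial cells, which was not tested. At equal depth cxcl12a was found in 10.7% of vessel cells (8 cells), 0.804% of endocardial cells and 0.991% of the rest. For ackr3b the shares were 8% (6 cells), 0.547% and 0.235%. Other such genes went the other way. In vessel and endocardial cells vcam1b was found in 0% and 3.96%, cxcl20 in 0% and 0.955%, and ackr4b in 0% and 0.897%. The levels of cxcl12a did not follow the groups, with 7.28 and 659 CPM at 6 hpci and 81.2 and 1146 CPM at 6 hps. All 27 UMIs of 6 hpci replicate 2 came from 1 cell. For ackr3b the levels were 21.9 and 122 CPM at 6 hpci and 59.8 and 77.5 CPM at 6 hps.

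Of 23 immediate early and stress genes 10 were tested, 1 above and 9 below 0, with a median log2 fold change of -1.55 and 1 unadjusted p under 0.05 (btg2). The AP-1 gene fosab had 21.9 and 171 CPM at 6 hpci and 132 and 660 CPM at 6 hps, and jun had 36.4 and 317 CPM at 6 hpci and 111 and 500 CPM at 6 hps. In both genes 6 hpci replicate 2 was above 6 hps replicate 1, so the groups overlapped, while within each replicate number the 6 hpci library was below the 6 hps library. The stress factor gene atf3 was highest in an injured library, with 29.1 and 488 CPM at 6 hpci and 64.1 and 269 CPM at 6 hps. Of 17 NF-kB and Stat feedback genes 7 were tested (1 above and 6 below 0, median log2 fold change -1.27). Among them socs3b, an inhibitor of Jak and Stat signalling, had 1 and 1 UMIs at 6 hpci and 15 and 120 at 6 hps, or 7.28 and 24.4 CPM against 64.1 and 207 CPM. Both lists were also lower at 6 hpci in all other kept barcodes. There the immediate early list took 0.0588% and 0.0729% of UMIs at 6 hpci and 0.101% and 0.190% at 6 hps. The NF-kB and Stat list took 0.0516% and 0.0363% at 6 hpci and 0.0613% and 0.0884% at 6 hps.

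Of 17 heat shock chaperone genes 12 were tested (1 above and 11 below 0, median log2 fold change -1.72, none with an unadjusted p under 0.05). The Hsp70 and Hsp90 genes with dnajb1b took 0.0357% and 0.735% of UMIs at 6 hpci and 0.224% and 1.76% at 6 hps. Over 1% of UMIs lay in these 6 genes in 0 and 1 cells at 6 hpci and in 3 and 14 cells at 6 hps. Among other kept barcodes the same genes took 0.194% and 0.355% at 6 hpci and 0.236% and 0.847% at 6 hps. Within each condition replicate 2 was above replicate 1, and within each replicate number 6 hpci was below 6 hps, in vessel cells and in the other barcodes.

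The groups less tied to endothelium are summarised by counts. Of the 21 Bmp, Tgf-beta and Id genes, id1 was the one tested, with a log2 fold change of 0.49. Of 24 basement membrane and matrix genes sparc was tested (0.38). The basement membrane gene col4a1 had 14.6 and 97.7 CPM at 6 hpci and 42.7 and 12.1 CPM at 6 hps. Of 25 hypoxia and glycolysis genes 10 were tested, all below 0 (median log2 fold change -0.67), among them gapdh with 3351 and 342 CPM at 6 hpci and 2435 and 5204 CPM at 6 hps. Of 19 cell cycle genes 3 were tested, all below 0 (median -0.72), and mki67, a marker of dividing cells, had 1 UMI in all. Of 20 antigen presentation and interferon genes 5 were tested, 3 above and 2 below 0 (median 0.49), among them b2ml at 357 and 1172 CPM at 6 hpci and 457 and 508 CPM at 6 hps. Of 10 lymphatic and venous genes lyve1a was tested (log2 fold change -1.05).

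Marker lists of other cell types were read the same way. Of 15 cardiomyocyte marker symbols, which stand for 17 genes with a UMI, 16 genes were tested, 1 above and 15 below 0 (median log2 fold change -0.56). Of the 14 epicardium and fibroblast markers 4 were tested, all below 0 (median -0.36), and they took 0.0306% and 0.0952% of UMIs at 6 hpci and 0.0350% and 0.110% at 6 hps. Of 12 mural markers 6 were tested, 3 in each direction (median 0.80, 1 with an unadjusted p under 0.05, myh11a). The endocardium list of 10 genes took 0.0670% and 0.293% of UMIs at 6 hpci and 0.209% and 0.245% at 6 hps, mostly through fabp11a, its 1 tested gene outside the rule.

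Finally, the difference between conditions in vessel cells was set against that in endocardial cells and in all other kept barcodes with interaction tests. No gene passed (0 of 8657, 0%, and 0 of 12073, 0%), with 141 and 79 genes at an unadjusted p under 0.05. Of the genes tested, 50.5% and 63.4% had no UMI in the vessel cells of the 6 hpci libraries, since the other sums were far deeper. Whether vessel cells responded as the endocardium did was therefore not detectable at this depth for most genes. The far deeper sums of the other classes gave no call between 6 hpci and 6 hps by edgeR either. In endocardial cells 0 of 11945 genes passed (lowest adjusted p 0.968), and in all other kept barcodes 0 of 14252 (lowest adjusted p 0.838).

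Which library was left out changed the number of calls. In the comparison of 6 hpci with 6 hps, genes passed whichever library was left out. A single library then stood for its group, so the number of genes passing is not given. The median log2 fold change over the genes tested was -0.997 without 6 hpci replicate 1 and -0.0513 without 6 hpci replicate 2. Of the genes tested in these fits, 22.0% and 7.06% had no UMI in the remaining 6 hpci vessel cells. The 2 libraries of 6 hpci also differed in 7.58% and 0.613% cardiomyocyte UMIs and 0.460% and 1.42% UMIs of the 17 heat shock genes. The part of these differences in the medians was not tested.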

How the data were processed

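Single-cell libraries of 4 heart pools (2 of 6 hpci, 2 of 6 hps) were analysed. The authors deposited unnormalized UMI counts for each gene in each barcode, made with Cell Ranger 4.0.0 on GRCz11 per the submitters' processing notes. Groups and replicate numbers came from the sample titles. The gene table held 31466 genes, of which 28965 identifiers matched a symbol table used for names only. Hearts were pooled, and whether p-values measure more than the spread between pools cannot be known.

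Members and gene lists were chosen with earlier results of these data known. Of 386 listed genes 15 were absent from the gene table, and 1 result on a list is not reported here. Named genes were all genes past the threshold, the 20 leading genes and up to 4 of the most abundant per list. The 10 highest and 10 lowest log2 fold changes among non-overlapping genes of at least 100 CPM were also named. Exceptions chosen after seeing values were myh11a, rgs5b, socs3b, btg2, pdgfrb, prox1a, mki67, vwf, ackr3b, cavin1a, vcam1b, cxcl20, ackr4b and the scarce genes given by UMIs.

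UMIs were summed per library and tested with edgeR 4.0.16 (TMM scaling, filterByExpr at 10 counts, the robust option of glmQLFit, group as the single term, Benjamini-Hochberg adjustment). Standard errors are the log2 fold change over the root of F. Interactions used ~ library + class + group:class. The 10 vessel and endocardial genes of the rule were left out of calls. Haemoglobin genes, 4 symbols of which the rule limits, were kept in the fits and are counted among calls. The study's sample sheet names the same person as performing the injuries of both replicate 1 libraries and another for both replicate 2 libraries. Numbers were therefore taken as pairs in the replicate-block alternatives. The main fit and the permutation test of the share did not use this pairing. Deviations of same-numbered libraries correlated at r = 0.27 over 876 genes. Doublets were scored with Scrublet in scanpy 1.11.5, taking the highest scores at 0.8% per 1000 cells. Alternatives included DESeq2 1.42.0, other scaling and filters, and stricter choices of cells. The fits were tested on simulated data.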

Additional observations from a re-analysis of the deposited data

How the results depend on the processing

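The lower share of vessel cells at 6 hpci (log2 ratio -1.39) kept its direction under all 9 other choices of cells or denominators that were run, from -1.08 to -1.90, with no overlap between groups in any of them, and from -1.08 to -1.78 when each library was left out in turn. With replicates as pairs (replicate block) it was -1.42. The count of genes called between 6 hpci and 6 hps in vessel cells (0) became 3 with library sizes alone, 3 with DESeq2 size factors, 5 with the replicate block, 3 with at most 30% mitochondrial UMIs and 2 with each cell thinned to 1000 UMIs, in each of these settings haemoglobin genes alone, all higher at 6 hpci, most of them limited by the choice of cells. It stayed 0 under DESeq2, without a filter, with a minimum count of 20, with at least 5 vessel UMIs, without endocardial UMIs and without high doublet scores. It also stayed 0 in 4 alternatives chosen after seeing the data, namely the rule without mcamb, at most 5% cardiomyocyte UMIs, no cells of 1000 or more tagln UMIs and no cells over 5% haemoglobin UMIs. Leaving out 1 library gave 4 to 100 calls, 4 of them without 6 hps replicate 1 and 5 without 6 hps replicate 2. There a lone library is assumed to vary like the others, and the cause was not tested. The interaction counts (0) became 0 to 173 against endocardial cells and 0 to 193 against other barcodes when 1 library was left out. They also stayed at 0 with library sizes alone, without mcamb in the rule and without the tagln-rich cells, and the replicate number could not be added as a block there because library terms already hold it. With 40949 UMIs in 6 cells, 6 hpci replicate 2 limits every comparison of genes.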
